A study of Zea mays with 14 samples.

Results

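The gene models described here carry H3K27me3, trimethylation of lysine 27 of histone H3, in both shoots and roots of maize (Zea mays) seedlings. They were selected on measured values, a deposited H3K27me3 length above 0 bp in the gene tables of both organs, and they number 1677 of 186790 models. They are 25.3% of the 6622 models with H3K27me3 in shoot (95% Wilson interval 24.3 to 26.4%) and 71.03% of the 2361 with H3K27me3 in root (69.2 to 72.8%). A further 4945 models had the mark in shoot only, 684 in root only and 179484 in neither organ.

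All tissue came from the inbred line B73 at 14 days, with shoots and roots separated at harvest and no treatment or mutant in either group. Chromatin of each organ was immunoprecipitated with antibodies to H3K4me3, H3K9ac, H3K27me3 and H3K36me3, using tissue of 10 seedlings and pooling the DNA of 3 reactions per library. Methylated DNA was released by McrBC, an enzyme that cuts at methylcytosine, and polyadenylated RNA was sequenced from the same organs. Each assay had 1 library per organ, so organ differences have no replicate check, no test across samples could be made, and cell composition of the organs cannot be told apart from the state of their cells.

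H3K27me3 is deposited by Polycomb repressive complex 2. In plants it lies mostly on single genes, many of them developmental regulators or genes used in few tissues, where it is associated with repression. H3K4me3 and H3K9ac mark the starts of active genes, and H3K36me3 accumulates along transcribed genes. Genes that carry H3K4me3 together with H3K27me3 are often called bivalent, although in an organ made of many cell types the marks may lie in different cells. DNA methylation in plants lies over transposons and also within the bodies of many transcribed genes.

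The mRNA libraries were of similar size, with coverage worth 21615685 reads in shoot and 21406798 in root over all models. The total reads of the chromatin libraries are unknown here. Within their H3K27me3 peaks, the members held a median coverage equal to 51 reads of 35 bases in shoot (range 4 to 1830) and 18 in root (1 to 976), so root values were the less precise. Intervals below are Wilson intervals at 95%, cover counting error only, and treat gene models as independent. They are somewhat too narrow, since 374 members (22.3%) repeated every mark length and depth of an earlier member and 1303 sets of values were distinct. The largest such set had 13 members, each marked over 449 bp (shoot) and 415 bp (root), with no other mark and no mRNA in either organ. The gene identifiers matched none in the RefSeq table for B73, so members are not named by gene and no sequence is shown.

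The marked length of H3K27me3 was greater in shoot than in root for nearly every member. Depth per marked base, as scaled by the authors, was almost the same. The marked length had a median of 937 bp in shoot (quartiles 578 and 1374) and 384 bp in root (260 and 595). It was longer in shoot for 1574 members (93.9%) and longer in root for 102 (6.08%). As a log2 ratio of shoot over root, the median was 1.12, with quartiles of 0.59 and 1.68, and 942 members (56.2%) were at least 2-fold longer in shoot against 6 at least 2-fold longer in root. Depth, the coverage summed inside the peaks and scaled per library by the authors, had a median log2 ratio of 1.14 (quartiles 0.57 and 1.71). Depth per marked base had medians of 3.42 in shoot and 3.47 in root, and its median log2 ratio was -0.01. These values chose the members and are a description. The number and length of H3K27me3 peaks follow the depth and efficiency of each library, which cannot be told apart from the organ.

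**Figure D1:**
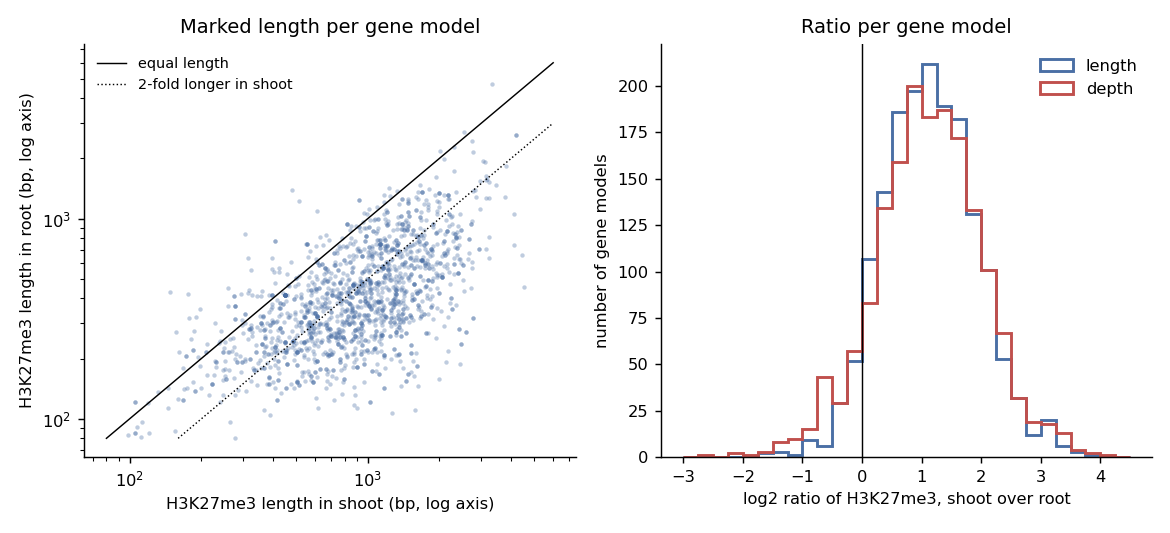
H3K27me3 in the 1677 members. Left, marked length in bp in shoot (horizontal) and root (vertical) on log axes, 1 point per gene model, with lines for equal length and for 2-fold longer in shoot; right, number of gene models by log2 ratio of shoot over root for length (blue) and depth (red). Most points lie below the line of equal length, and both distributions centre near a log2 ratio of 1.1.

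Members varied widely in the extent of the mark. The longest domain in shoot measured 4541 bp there and 458 bp in root, while the longest in root measured 3315 bp in shoot against 4690 bp. Both models had no mRNA listed in either organ. At the other end, the shortest domain in shoot measured 99 bp against 83 bp in root, on a model with 754 mRNA reads in shoot and 814 in root. The strongest shift towards shoot was 1578 bp against 111 bp, and the strongest towards root was 148 bp in shoot against 431 bp in root. The lengths in shoot and in root had a Spearman's rho of 0.584 across the 1677 members, and the depths one of 0.721, as a description of models that share their library and their sequence. Just inside the rule, the lowest lengths were 99 bp in shoot against 80 bp in root. Under 200 bp were 39 members in shoot and 200 in root. Just outside it lay the models listed at 0 bp in the other organ. Those marked in shoot only had a median of 632 bp, and those marked in root only one of 251 bp.

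Most members also carried H3K4me3, many carried H3K9ac, and few carried H3K36me3 or DNA methylation. H3K4me3 was on 1259 members in shoot (75.1%, 72.9 to 77.1%) and on 1024 in root (61.1%, 58.7 to 63.4%). Among models with H3K27me3 in neither organ, the shares were 23.9% in shoot and 18.5% in root. H3K9ac was on 955 members in shoot (56.9%, 54.6 to 59.3%) and on 311 in root (18.5%, 16.8 to 20.5%), against 23.8% and 11.998% of models with H3K27me3 in neither organ. H3K36me3 went the other way. In shoot 78 members had it (4.65%, 3.74 to 5.77%), against 11.7% of models with H3K27me3 in neither organ, and in root 113 had it (6.74%, 5.63 to 8.04%), against 14.2%. DNA methylation was on 47 members in shoot (2.80%, 2.11 to 3.71%) and 61 in root (3.64%, 2.84 to 4.64%), beside 4.23% and 3.71% in the same comparison. The root share of these models lies within the members' interval. With 1 model per repeated set in both groups, the shoot difference was gone, at 3.53% of members and 3.48% of the other models, and the root shares were 4.22% and 2.99%.

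For H3K4me3, and for H3K9ac in shoot, models with H3K27me3 in a single organ lay nearer to the members than to models with it in neither. H3K4me3 in shoot was on 67.3% of those marked in shoot only (66.0 to 68.6%) and 62.9% of those marked in root only (59.2 to 66.4%), both below the members' interval. In root the shares were 49.9% and 47.8%, again below the members' 61.1%. H3K9ac in shoot was on 48.7% of those marked in shoot only (47.3 to 50.1%) and 50% of those marked in root only (46.3 to 53.7%). H3K9ac in root was on 13.1% and 15.2% in the same order. H3K36me3 in shoot was on 5.90% of the models marked in shoot only (5.28 to 6.60%) and on 10.5% of those marked in root only (8.44 to 13.1%). The first of these intervals overlaps that of the members. Where a member did carry H3K36me3, the marked length was short, with a median of 767.5 bp in shoot and 672 bp in root. In models with H3K27me3 in neither organ the medians were 1265 bp and 945 bp. They were 892 bp and 821 bp with H3K27me3 in shoot only, and 807.5 bp and 967 bp with it in root only. Short H3K36me3 in shoot was thus not particular to members. The H3K4me3 lengths in shoot were close, with medians of 1106 bp in members and 1135.5 bp in models with H3K27me3 in neither organ.

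**Figure D2:**
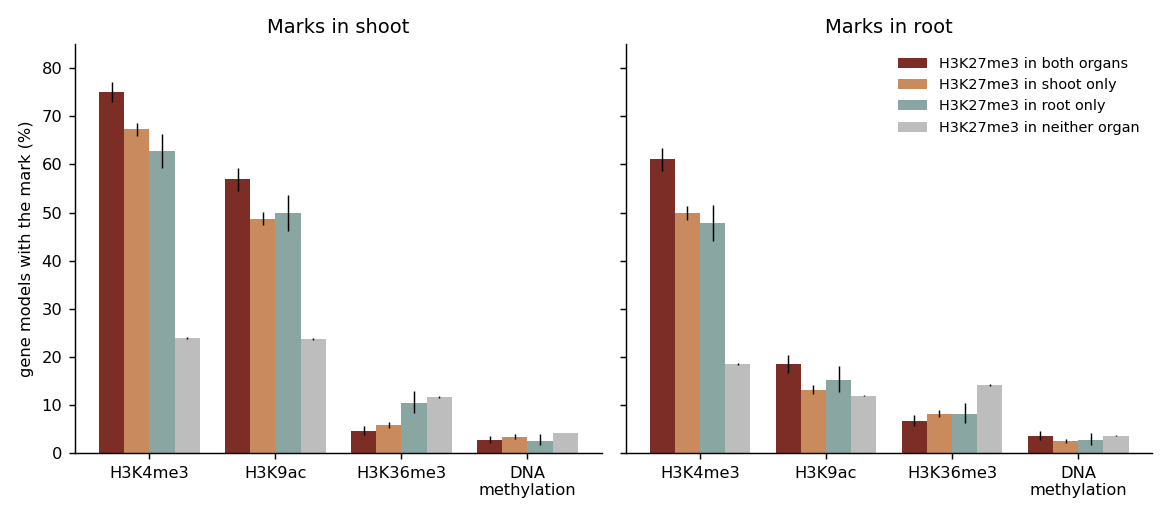
Share of gene models (%) with each of 4 other marks in shoot (left) and root (right), for models with H3K27me3 in both organs, in shoot only, in root only and in neither organ. Bars give the share and black lines its 95% Wilson interval; H3K4me3 is highest in members, at 75.1% in shoot and 61.1% in root, and H3K36me3 is lower in members than in models without H3K27me3.

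The commonest state in shoot joined H3K27me3 with H3K4me3 and H3K9ac, in 797 members (47.5%). H3K4me3 alone accompanied it in 375 members (22.4%), and no other mark did so in 318 (18.96%). In root the commonest state was H3K27me3 with H3K4me3 alone, in 709 members (42.3%), followed by no other mark in 576 (34.3%) and by H3K4me3 with H3K9ac in 209 (12.5%). H3K4me3 accompanied H3K27me3 in both organs in 966 members (57.6%, 55.2 to 59.9%) and in neither in 360 (21.5%). H3K4me3 and H3K9ac were both present in both organs in 248 members (14.8%). No other mark was listed in either organ for 259 members (15.4%, 13.8 to 17.3%). The same combination of the 4 other marks was found in both organs for 683 members (40.7%).

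Compared with all models of the series that carry the mark, members had H3K9ac in a single organ more often, in either direction. They also had H3K36me3 in root only more often and DNA methylation in shoot only less often. H3K4me3 was listed in shoot only less often, by a smaller margin. For H3K36me3 in shoot only and H3K4me3 in root only, the members' share was higher, but its interval ended close to the background. Since the intervals are somewhat too narrow, those shares are not told apart from it. Of the 1317 members with H3K4me3 in either organ, 293 had it in shoot only (22.2%, 20.1 to 24.6%), against a background of 25.4% of all models with the mark, and 58 in root only (4.40%, 3.42 to 5.65%), against 3.35%. For H3K9ac, 672 of 983 members had it in shoot only (68.4%, 65.4 to 71.2%), against a background of 52%, and 28 in root only (2.85%, 1.98 to 4.09%), against 1.64%. For H3K36me3, 71 of 149 members had it in root only (47.7%, 39.8 to 55.6%), against 32.7%, and 36 in shoot only (24.2%, 18.0 to 31.6%), against 17.9%. For DNA methylation, 20 of 81 members had it in shoot only (24.7%, 16.6 to 35.1%), against 47%, and 34 in root only (41.98%, 31.8 to 52.8%), against 39.6%. Models with H3K27me3 in a single organ shared part of this: H3K9ac was in shoot only for 73.7% of those with H3K27me3 in shoot only and 70.7% of those with it in root only. H3K36me3 was in root only for 46.2% of models with H3K27me3 in shoot only, close to the members' 47.7%. Where H3K4me3 was listed in both organs, its median log2 depth ratio of shoot over root was 0.97 in members and 1.16 in models with H3K27me3 in neither organ. It was 0.95 in models with H3K27me3 in shoot only, close to the members, and 1.14 in those with it in root only.

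Members with longer H3K27me3 domains carried H3K36me3 less often, most clearly in shoot. With the members in 4 equal groups by marked length in shoot, H3K36me3 was on 10.9% of the shortest (99 to 578 bp, interval 8.29 to 14.3%), 4.28% of the next, 1.202% of those from 938 to 1374 bp and 2.15% of the longest (1375 to 4541 bp, 1.13 to 4.03%). In root, with groups by the length in root, the shares were 12.2%, 5.29%, 5.05% and 4.30%, so the shortest group stood apart from the other 3. H3K4me3 ran the other way, in shoot at 65.8% of the shortest (61.1 to 70.2%) and 79.2% of the longest (75.1 to 82.8%). In root it was on 51.2% of the shortest (46.4 to 55.9%), then 67.3%, 61.3% and 64.7% of the longest (60.0 to 69.1%). H3K9ac in shoot was highest in the second group, at 63.7%, and lowest in the longest, at 49.4%. mRNA was above 0 in shoot for 33.02% of the shortest (28.7 to 37.6%) and 23.4% of the longest (19.6 to 27.7%). In root the corresponding shares of 32.9% and 29.6% had overlapping intervals.

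**Figure D3:**
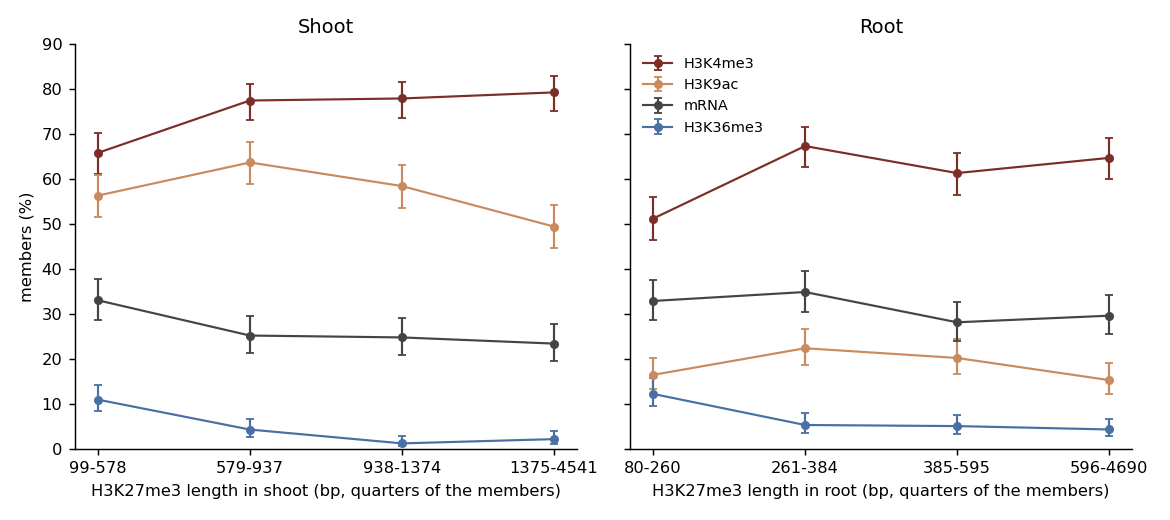
Share of members (%) with H3K4me3, H3K9ac, H3K36me3 and mRNA above 0, by 4 equal groups of H3K27me3 length in bp, for shoot (left) and root (right). Points give the share and bars its 95% Wilson interval; H3K36me3 is at 10.9% in the shortest group of shoot and 2.15% in the longest.

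Members had mRNA listed in either organ more often than models with H3K27me3 in neither, and those with mRNA had it more often in a single organ. The lowest mean depths per covered base listed for mRNA were 2.55 in shoot and 2.53 in root, so a model listed at 0 may hold RNA below that depth. In these bulk tissues, fewer cells with an mRNA and less of it per cell cannot be told apart. mRNA was above 0 in shoot for 446 members (26.6%, 24.5 to 28.8%) and in root for 526 (31.4%, 29.2 to 33.6%). Among models with H3K27me3 in neither organ the shares were 23.7% and 23.3%. It was above 0 in both organs for 284 members, in shoot only for 162, in root only for 242 and in neither for 989 (58.97%, 56.6 to 61.3%). The share with mRNA in neither organ was 60.7% of models with H3K27me3 in shoot only, 72.5% of those with it in neither organ and 72.04% of all models. Of the 688 members with mRNA in either organ, 404 had it in a single organ (58.7%, 55.0 to 62.3%). The share was 55.0% of models with H3K27me3 in shoot only (52.7 to 57.2%), 49.5% of those with it in root only (44.1 to 55.0%) and 28.7% of those with it in neither organ (28.3 to 29.1%). Where mRNA was listed, its level was close to that of other models: the median mean depth was 5.67 in members against 6.17 in models with H3K27me3 in neither organ in shoot, and 6.08 against 6.13 in root.

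At equal combinations of the other marks, members with H3K4me3, or in shoot H3K4me3 and H3K9ac, had mRNA less often than models with H3K27me3 in neither organ. So did members with H3K4me3, H3K9ac and H3K36me3 together in root. Members with no other mark in root had mRNA more often. Of the 797 members with H3K4me3 and H3K9ac in shoot, 30.5% had mRNA there (27.4 to 33.8%), against 50.01% of 20134 models with H3K27me3 in neither organ (49.3 to 50.7%). With H3K4me3 alone in shoot the shares were 21.1% of 375 members (17.2 to 25.5%) and 33.8% of 4557 models (32.4 to 35.1%). In root, H3K4me3 alone gave 27.9% of 709 members (24.8 to 31.3%) and 40.8% of 8638 models (39.7 to 41.8%). For root models with H3K4me3 and H3K9ac the intervals overlapped, at 54.5% of 209 members (47.8 to 61.2%) and 61.8% of 4838 models (60.5 to 63.2%). Where H3K36me3 joined both of these marks, mRNA was above 0 in shoot for 76.8% of 56 members (64.2 to 85.9%) and 75.5% of 16563 models, and the shoot shares thus did not differ beyond their intervals. In root the shares were 58.5% of 53 members (45.1 to 70.7%) and 76.7% of 13425 models (76.0 to 77.4%), with intervals that did not overlap. With H3K27me3 in shoot only, the root share was 70.5% of 207 models (64.0 to 76.3%), an interval that overlaps that of the members. Without any other mark the order turned in root, where 22.7% of 576 members had mRNA (19.5 to 26.3%), against 12.4% of 132749 models (12.2 to 12.6%). In shoot the shares were 13.8% of 318 members (10.5 to 18.1%) and 10.8% of 122402 models, a value inside the members' interval. Models with H3K27me3 in shoot only had similar shares in several of these states. In shoot, 29.03% of 1984 with H3K4me3 and H3K9ac had mRNA (27.1 to 31.1%). In root, where they have no H3K27me3 listed, 29.1% of 1762 with H3K4me3 alone had it (27.04 to 31.3%). With no other mark in root, 22.9% of 2257 had it (21.2 to 24.6%). With H3K4me3 and H3K9ac in root the share was 65.2% of 345 (60.05 to 70.1%), higher than in members, with overlapping intervals.

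**Figure D4:**
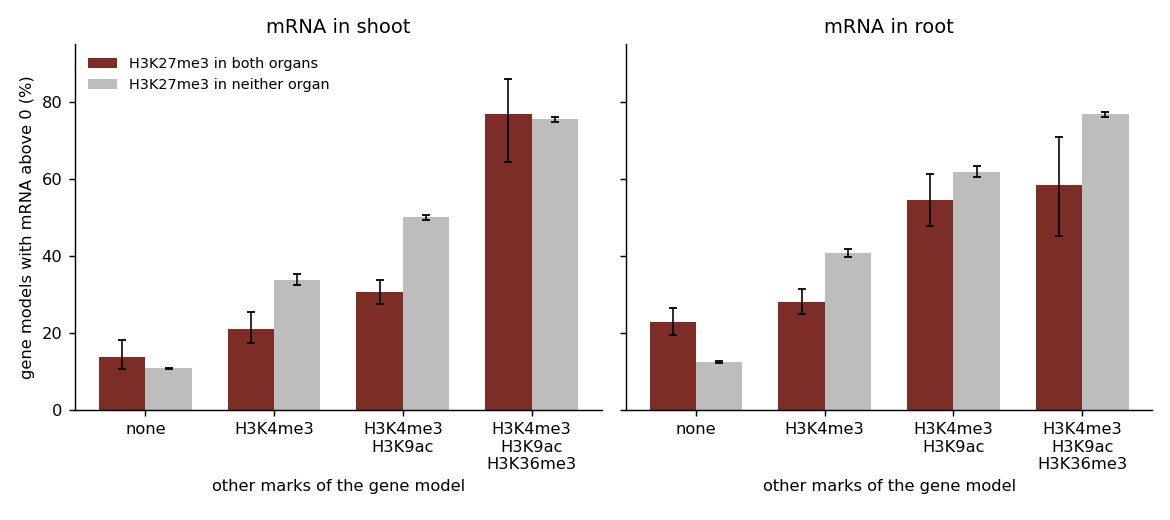
Share of gene models (%) with mRNA above 0 in shoot (left) and root (right), for members and for models with H3K27me3 in neither organ, by the other marks of the model. Bars give the share and lines its 95% Wilson interval. In shoot, members with H3K4me3 and H3K9ac stand at 30.5% against 50.01%, and with H3K36me3 added at 76.8% against 75.5%. In root, members with H3K4me3, H3K9ac and H3K36me3 stand at 58.5% against 76.7%.

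H3K4me3 without listed mRNA was common in members, and mRNA without H3K36me3 was the usual state. In shoot, H3K4me3 was on 71.7% of the 1231 members listed at 0 for mRNA (69.2 to 74.2%), against 12.9% of such models with H3K27me3 in neither organ. In root it was on 56.99% of 1151 members listed at 0 (54.1 to 59.8%), against 8.98%. Models with H3K27me3 in a single organ lay nearer to the members. Listed at 0 in shoot, 64.7% of those marked in shoot only had H3K4me3 there (63.1 to 66.2%). Of those marked in root only, 55.7% did (51.0 to 60.4%). The root shares were 44.3% (42.6 to 46.0%) and 42.1% (37.7 to 46.7%) in the same order. Among members with mRNA, H3K36me3 was on 52 of 446 in shoot (11.7%, 9.00 to 14.97%) and on 59 of 526 in root (11.2%, interval 8.80 to 14.2%). The shares were 35.999% and 41.4% of models with mRNA and H3K27me3 in neither organ. With H3K27me3 in shoot only they were 16.9% in shoot (14.9 to 19.03%) and 16.2% in root (14.5 to 18.1%). With it in root only they were 22.6% (17.9 to 28.1%) and 15.5% (11.4 to 20.8%). H3K36me3 in shoot also went with the organ of the mRNA. In shoot it was on 23 of the 162 members with mRNA in shoot only (14.2%, 9.65 to 20.4%) and on 0 of the 242 with mRNA in root only, which allows a share of up to 1.24% by the limit of 3 counts and 1.56% by the Wilson interval. In root it was on 8 of the 162 (4.94%) and on 14 of the 242 (5.79%), with overlapping intervals.

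Differences in mRNA level between organs ran both ways. To compare levels, log2 ratios of shoot over root were taken on reads plus a pseudocount of 12, and models were compared where the higher organ had at least 146 reads, which 348 members did. A ratio of 4-fold or more counted as higher. By this rule 91 members were higher in shoot (26.1%, 21.8 to 31.01%), against 13.2% of all 26782 models compared, and 125 were higher in root (35.9%, 31.1 to 41.1%), against 9.01%. A further 83 (23.9%) were under 2-fold apart. Large differences were not particular to members. Of the 988 compared models whose H3K27me3 was listed in shoot alone, 22.3% passed the rule towards shoot (19.8 to 25.0%). Another 34.2% passed it towards root (31.3 to 37.2%), and both intervals overlap those of the members. With the mark in root alone, the shares of 177 models were 40.1% (33.2 to 47.5%) and 14.1% (9.75 to 20.02%) in the same order. The median log2 ratio was -0.51 in members and -0.08 over all models compared, and the members' quartiles of -3.81 and 2.53 were far wider than the -0.66 and 0.60 of all models. Of the 91, 68 were listed at 0 in root, and of the 125, 81 were listed at 0 in shoot. The balance between the organs rested on the pseudocount: at 120 reads, 64 members were higher in shoot and 57 in root.

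A higher ratio of H3K27me3 in shoot over root went with a lower ratio of mRNA. Among the 348 members, the log2 ratios of H3K27me3 depth and of mRNA had a Spearman's rho of -0.331, the ratio of H3K27me3 length gave -0.265, and that of depth per marked base gave -0.198. In the lowest of 3 equal groups of the H3K27me3 depth ratio (log2 -1.85 to 0.70, 116 members), 34.5% were higher in shoot for mRNA (26.5 to 43.5%) and 18.97% higher in root (12.9 to 27.05%). In the highest group (log2 1.44 to 3.99, 116 members), 16.4% were higher in shoot (10.7 to 24.2%) and 49.1% higher in root (40.2 to 58.1%). The median log2 ratio of mRNA was 0.15 in the lowest group, -0.54 in the middle one and -1.96 in the highest. H3K27me3 depth was the higher in root for 47 of the 348 members. Of these, 20 were higher in shoot for mRNA (42.6%, 29.5 to 56.7%) and 3 were higher in root (6.38%, 2.19 to 17.2%). Genes are not independent replicates and every ratio rests on the same 4 libraries, so rho has no p-value.

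**Figure D5:**
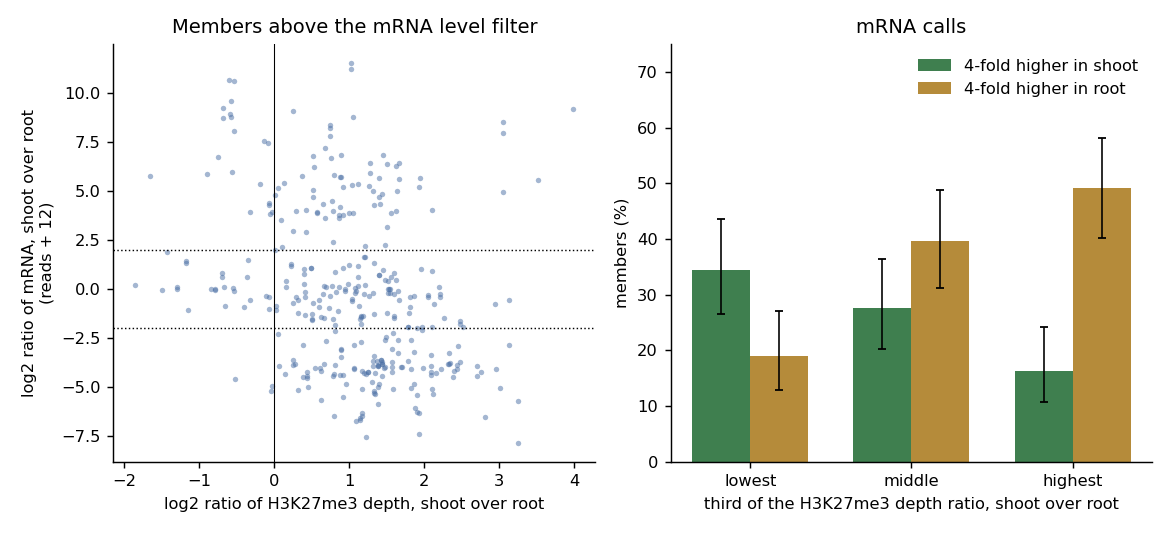
Left, log2 ratio of shoot over root of mRNA (vertical, reads plus 12) and of H3K27me3 depth (horizontal) for the 348 members above the level filter, with dotted lines at 4-fold; right, share of members (%) with 4-fold higher mRNA in shoot or in root by 3 equal groups of the H3K27me3 depth ratio, with 95% Wilson intervals. The share higher in root is 18.97% in the lowest group and 49.1% in the highest.

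The median H3K27me3 depth ratio differed between the mRNA groups in the same sense. It was 0.78 in members higher in shoot for mRNA (quartiles 0.09 and 1.32), 1.39 in those higher in root (0.92 and 1.91) and 0.94 in those under 2-fold apart (0.20 and 1.52). In all 3 groups the median stayed above 0, so H3K27me3 in shoot exceeded that in root in most members whichever organ had more mRNA. Members under 2-fold apart had the shorter domains, with medians of 615 bp in shoot and 285 bp in root, against 980 and 467 bp in those higher in shoot and 1107 and 389 bp in those higher in root.

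The ratios of the active marks ran in the same direction as the mRNA ratio. Spearman's rho between the log2 depth ratio of a mark and that of mRNA was 0.560 for H3K4me3 over 307 members, 0.507 for H3K9ac over 268 and 0.552 for H3K36me3 over 66. In models with H3K27me3 in neither organ it was 0.435, 0.218 and 0.171 in the same order. For DNA methylation, rho was also positive in members, at 0.441 over only 21, and 0.013 in models with H3K27me3 in neither organ. These are values across genes, with a pseudocount at the 5th percentile of each mark, and the difference between the sets was not tested. The sets also differ in the spread of the mRNA ratio. Its quartiles were -3.81 and 2.53 in compared members and -0.61 and 0.57 in models with H3K27me3 in neither organ. H3K4me3 and H3K27me3 ratios had a rho of -0.0336 with each other across 1317 members, and H3K9ac and H3K27me3 one of -0.157 across 983.

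Members with H3K9ac in shoot only had 4-fold more mRNA in shoot more often than those with it in both organs or in neither. They had mRNA listed about as often in root as in shoot. Of the 283 members with H3K9ac in both organs, 40.3% had mRNA in shoot (34.7 to 46.1%) and 54.4% in root (48.6 to 60.1%). Of the 672 with H3K9ac in shoot only, the shares were 30.1% (26.7 to 33.6%) and 28.6% (25.3 to 32.1%). Of the 28 with H3K9ac in root only, the shares were 21.4% (10.2 to 39.5%) and 46.4% (29.5 to 64.2%). Of the 694 with H3K9ac in neither organ, they were 17.9% (15.2 to 20.9%) and 24.1% (21.03 to 27.4%). H3K9ac in shoot only was found on 144 of the 348 compared members, of which 57 had 4-fold more mRNA in shoot (39.6%, 31.97 to 47.7%) and 34 had it in root (23.6%). H3K9ac in both organs was found on 116, of which 17 had 4-fold more mRNA in shoot (14.7%, 9.36 to 22.2%) and 53 had it in root (45.7%). Of the 694 with it in neither organ 80 were compared, with 21.3% higher in shoot (13.7 to 31.4%) and 41.3% higher in root (31.1 to 52.2%), close to those with it in both organs. With H3K9ac in root only 8 were compared, of which 0 were higher in shoot and 5 in root. The organ of H3K4me3 gave a similar order with overlapping intervals. With H3K4me3 in shoot only, 34.9% of 63 compared members were higher in shoot (24.3 to 47.2%) and 22.2% higher in root (13.7 to 33.9%). With H3K4me3 in both organs, 23.9% of 238 were higher in shoot (18.97 to 29.8%) and 39.9% higher in root (33.9 to 46.3%). mRNA in shoot was above 0 in 29.3% of the 966 members with H3K4me3 in both organs, 31.7% of the 293 with it in shoot only and 16.4% of the 360 with it in neither organ (12.9 to 20.6%).

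The members with the highest and lowest mRNA ratios were listed at 0 in an organ, and those highest in root kept H3K4me3 in both organs. Zm031678 had 35119 mRNA reads in shoot and was listed at 0 in root. Its H3K27me3 spanned 670 bp in shoot against 177 bp, with a log2 depth ratio of 1.02, so length and depth were higher in the organ with the mRNA. Per marked base the mark was deeper in root, with 5.21 in shoot against 9.72, and the only other mark listed was H3K4me3, in shoot alone. Zm184783 had 19304 reads in shoot and was listed at 0 in root. Its H3K27me3 spanned 610 bp in shoot against 499 bp, at a depth per marked base of 1.87 in shoot and 3.47 in root. The model had H3K4me3 over 1507 and 1439 bp (shoot, root), H3K9ac over 1956 and 339 bp, and H3K36me3 over 1073 bp in shoot alone.

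Zm100187 was listed at 0 in shoot and had 2701 reads in root. Its H3K27me3 was longer and deeper in shoot, with 1983 bp at 6.24 per marked base, against 427 bp at 3.05 in root. H3K4me3 spanned 1546 bp in shoot against 1592 bp, and H3K9ac 1614 bp against 628 bp. Zm162560 was listed at 0 in shoot and had 2164 reads in root. Its H3K27me3 spanned 975 bp in shoot against 484 bp, with H3K4me3 over 1243 and 1167 bp and H3K9ac over 1242 and 556 bp. Neither of these models had H3K36me3 or DNA methylation listed in either organ, and both thus held all 3 of H3K27me3, H3K4me3 and H3K9ac in shoot with no listed mRNA.

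A small set of members could be placed on the authors' typed gene models. A member was paired where exactly 1 typed model matched its mRNA coverage, summed over the organs, and its covered length. This placed 49 members, of which 17 were typed EVI, 26 PRO and 6 UPRO, terms the files do not explain. Of all 3572 paired models, 1380 were typed EVI, 2038 PRO and 154 UPRO. Among the 49, 37 were labelled protein-coding and 1 had a transposon biotype, against 3235 and 60 of the 3572. The protein-coding share was thus lower in the paired members than in all paired models, and the UPRO share higher. Of the 49, 47 lay on a sequenced clone with H3K27me3 peaks in both organs (95.9%, 86.3 to 98.9%), against 28.9% of all 3572 paired models (27.4 to 30.4%). The peaks come from the same H3K27me3 libraries as the lengths that chose the members. The comparison thus bears on the pairing at the level of the clone only, and is no independent evidence of the mark. The paired members spanned a median of 1562 bp (quartiles 852 and 2997), against 2856 bp in paired models with H3K27me3 in neither organ. Their marked length equalled a median of 54.3% of the span in shoot and 23.6% in root. It exceeded the span in 15 and 5 models, reaching 470% in shoot and 192% in root. Marked length therefore cannot be read as the part of a paired model that the mark covers. The cause of the lengths above the span was not tested. Pairing needs mRNA in both organs, so these values do not describe the members without it.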

How the data were processed

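The authors deposited, for each organ, a table of 186790 gene models, with a length in bp and a depth for every mark and, for mRNA, also the mean depth. Per the file headers and values, the deposited depths are signal (summed base coverage). Mark depths were whole multiples of 1 step per library, 1.70 for H3K27me3 in shoot and 2.14 in root, so each library was scaled by a single factor of unstated basis. mRNA depths were multiples of 35 bases and were divided by 35 to give reads. Neither the labels nor the headers name an aligner, a caller of peaks, a build or gene set (not given in the sources used here). Tables were joined by the number in the gene identifier, which differs only in zero padding.

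Shares have Wilson intervals. The 4-fold rule was applied to the whole table, with the pseudocount at the 5th percentile and the level filter at the median of reads above 0. Scripts used Python 3.11.15, pandas 2.3.3 and scipy 1.17.1, and were tested on simulated data. Models with repeated values were kept, with 1 per set as an alternative. Identifiers are printed for the 2 highest and 2 lowest mRNA ratios, skipping repeated H3K27me3 values. The members and rules were chosen with earlier results of these data known. The 2 small RNA libraries and the peak lists of other marks were not used here.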

Additional observations from a re-analysis of the deposited data

How the results depend on the processing

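For 16 results, 67 values were recomputed with another choice. Of these, 56 lay inside the interval of the reported value, or within 0.1 of its rho or 1.5 times its count, 10 lay outside and 1 changed sign. Keeping 1 model per repeated set (1303 members), or leaving out the 12 members of highest depth per base, an alternative added after seeing the data, moved none of these values, although the shoot difference in DNA methylation from models with H3K27me3 in neither organ was lost with 1 model per set, at 3.53% against 3.48%. With H3K27me3 over at least 200 bp in both organs (1463 members), H3K36me3 was on 3.69% in shoot and 5.13% in root. mRNA of mean depth 5 or more was found in 15.2% of members in shoot and 18.7% in root. The median log2 ratio of H3K27me3 depth was 1.48 without the authors' scaling and -0.0093 per marked base, a change of sign that follows from dividing by length. The members higher in shoot numbered 155 without the level filter, which tests more genes. Those higher in root numbered 57 with the larger pseudocount, 234 without the level filter, 74 by mean depth, and 77 with models listed at 0 set at the depth limit, an alternative added after seeing the data. The shoot share of all such calls was 42.1% as reported and 52.9% with the larger pseudocount. The cause of these moves was not tested unless named. No paired analysis was possible because each assay had 1 library per organ. Depth limits root most, with a median of 18 reads in the H3K27me3 peaks of a member.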

Other observations

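A few members stood apart by high coverage. In 12 members the H3K27me3 depth per marked base was above 20 in at least 1 organ, whereas the medians over all members were 3.42 in shoot and 3.47 in root. Most of these domains were short, with a median length of 120.0 bp in shoot against 116.5 bp in root. Together the 12 held 4.66% of the summed H3K27me3 depth of members in shoot and 7.31% in root. Of the 12, 8 had mRNA in both organs, from 1770 to 82787 reads in shoot and from 1715 to 75514 in root, with log2 ratios of shoot over root between -0.04 and 0.14. The other 4 had no mRNA listed in either organ. The 3 deepest had H3K27me3 at 225.4, 303.9 and 669.9 per marked base in shoot and 360.2, 355.2 and 372.8 in root. Their DNA methylation depth per base was 29.5 to 100.05 in shoot and 170 to 319 in root. Of the 12, 3 were among the 10 deepest of all 186790 models for H3K4me3, and 3 for DNA methylation, in each organ, but 0 for H3K9ac or H3K36me3. The part of high depth in several libraries in the values of these members was not tested.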
